A study of Homo sapiens with 4 samples.

Results

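Pyrimidine synthesis was followed through the transcripts of 8 enzymes in Kit225, a line of human T cell leukemia that grows only with interleukin-2. The enzymes are CAD, DHODH, UMPS, CTPS1, CTPS2, UCK1, UCK2 and CMPK1. Their members on the HG-U133 Plus 2.0 array are the probe sets that the platform annotation lists with a listed enzyme and with no other gene. By that rule 17 of the 54613 probe sets tested were members, and they stand for 7 of the 19775 genes named on the array. UCK2 has no member, because both of its probe sets are listed with a second gene as well, and it is therefore not described by values.

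Cells of the NC1153 group were exposed to NC1153, described as an inhibitor of JAK3 signalling, and cells of the DMSO group to its solvent. Exposure lasted 12 hours in both groups, at doses that the labels give as 25 mM NC1153 and 0.1% DMSO. The unit of the NC1153 dose could not be checked here. All cells were kept with 20 U/ml of recombinant interleukin-2, so interleukin-2 was present in both groups. Each group has 2 arrays, numbered 1 and 2. Nothing in the labels says whether the numbered samples came from separate cultures, so the p-values given here rest on a spread that may be no more than technical.

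Pyrimidine nucleotides are made along a de novo route and a salvage route. The de novo route builds the ring from glutamine, bicarbonate and aspartate and joins it to phosphoribosyl pyrophosphate (PRPP) to give UMP, which is phosphorylated to UTP and aminated to CTP. The salvage route phosphorylates uridine and cytidine that are taken up or released by RNA breakdown. Activated T cells are known to depend on the de novo route while they multiply, and inhibitors of DHODH are used to restrain them.

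Values are signals on a linear scale, scaled per array by the authors, and a change is the difference of mean log2 signals, NC1153 minus DMSO. A probe set was called when its Benjamini-Hochberg adjusted p, over all probe sets in a limma fit, was under 0.05. Before scaling, NC1153 replicate 1 was the dimmest, with a factor of 6.68 in the header of the authors' deposited table, against 2.97 for NC1153 replicate 2 and 2.88 and 2.66 for DMSO replicates 1 and 2. Of 9 T cell markers measured, CD2, CD4 and IL2RA had mean log2 signals above log2 of the median of all signals, 72.3, while those of CD3D, CD3E, CD3G, CD5, CD7 and LCK lay below it. Probe sets below it by their mean log2 signal are called dim here. The marker lists of B cells, myeloid cells, erythroid cells and epithelium each summed to at most 378 on any array. They held 3, 4, 1 and 3 measured genes, of which CD79A, HBB and KRT8 were not dim (mean signals 174, 118 and 160). The T cell markers summed to 29455 and 25498 with NC1153 and to 32245 and 32169 with DMSO. In RNA from whole cultures, fewer cells of a type and less RNA per cell cannot be told apart, and scaling removes any change in total RNA.

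The de novo enzymes and the amination step fell together. CAD, DHODH, UMPS and CTPS1 each fell by their brightest probe set, by 0.98 to 1.50 on the log2 scale, which is 1.97- to 2.83-fold lower with NC1153. CTPS2, UCK1 and CMPK1 were not called, and none of the 7 measured enzymes was called higher. Over all genes, by the brightest probe set, 2.84% were called lower and 3.09% higher. By probe set, 5 of the 17 members were called lower and 0 higher, against 1.78% lower and 1.94% higher over the whole array. All 5 are among the 12 members that were not dim, and of such probe sets 3.83% were called lower. The groups did not overlap for 10 of the 17 members, with both NC1153 arrays below both DMSO arrays for 9 and above for 1. Over the whole array these patterns held for 21.2% and 22.8% of probe sets. The median change of the 7 enzymes by their brightest probe sets was -0.98, against 0.0020 over all genes.

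**Figure D1:**
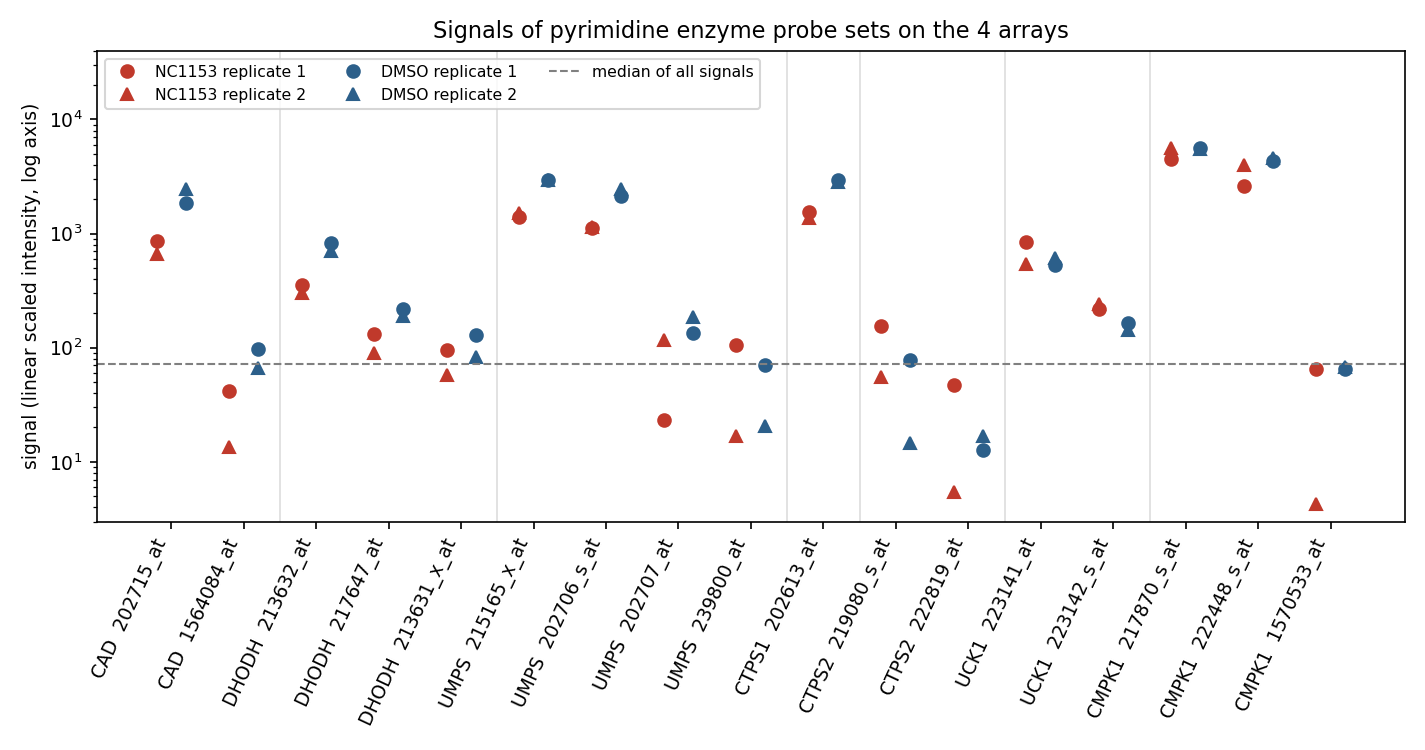
Signal of each of the 17 member probe sets on the 4 arrays (vertical log axis, linear scaled intensity), with NC1153 arrays in red on the left and DMSO arrays in blue on the right of each pair, circles for replicate 1 and triangles for replicate 2. CAD 202715_at, DHODH 213632_at, UMPS 215165_x_at and 202706_s_at and CTPS1 202613_at show both NC1153 arrays below both DMSO arrays. The dashed line is the median of all signals, 72.3.

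Because CAD, DHODH, UMPS and CTPS1 moved in the same direction, their promoters are shown. The 250 bases before each transcription start were read from RefSeq (GRCh38.p14), which listed all 8 enzymes by symbol. They are CAD at chr2:27217119-27217368, DHODH at chr16:72008494-72008743, UMPS at chr3:124730202-124730451 and CTPS1 at chr1:40979446-40979695 and chr1:40988269-40988518, all on the plus strand. CTPS1 has 2 listed starts, and which of them these cells use was not measured. Capitals mark the E-box CACGTG, a motif bound by MYC and USF proteins, and the GC box GGGCGG, a motif bound by SP1, each searched on both strands.
CAD: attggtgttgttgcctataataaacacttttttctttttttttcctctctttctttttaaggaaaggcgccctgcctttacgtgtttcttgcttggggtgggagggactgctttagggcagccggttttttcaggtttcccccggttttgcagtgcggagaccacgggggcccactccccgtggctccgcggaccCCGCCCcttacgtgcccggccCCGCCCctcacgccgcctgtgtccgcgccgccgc
DHODH: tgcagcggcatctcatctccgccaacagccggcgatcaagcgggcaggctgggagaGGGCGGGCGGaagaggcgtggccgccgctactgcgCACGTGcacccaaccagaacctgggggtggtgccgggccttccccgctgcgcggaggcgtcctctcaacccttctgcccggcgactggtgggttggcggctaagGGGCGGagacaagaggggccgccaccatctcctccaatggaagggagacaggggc
UMPS: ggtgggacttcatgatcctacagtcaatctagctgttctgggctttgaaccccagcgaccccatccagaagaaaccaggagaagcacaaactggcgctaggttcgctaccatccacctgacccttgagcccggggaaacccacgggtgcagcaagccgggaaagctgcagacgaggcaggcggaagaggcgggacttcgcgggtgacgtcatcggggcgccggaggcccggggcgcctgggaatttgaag
CTPS1 first start: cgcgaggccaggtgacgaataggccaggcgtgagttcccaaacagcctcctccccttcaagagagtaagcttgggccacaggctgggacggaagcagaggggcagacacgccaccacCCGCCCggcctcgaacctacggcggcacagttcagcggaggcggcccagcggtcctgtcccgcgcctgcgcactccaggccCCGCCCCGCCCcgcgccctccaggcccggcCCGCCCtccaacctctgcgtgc
CTPS1 second start: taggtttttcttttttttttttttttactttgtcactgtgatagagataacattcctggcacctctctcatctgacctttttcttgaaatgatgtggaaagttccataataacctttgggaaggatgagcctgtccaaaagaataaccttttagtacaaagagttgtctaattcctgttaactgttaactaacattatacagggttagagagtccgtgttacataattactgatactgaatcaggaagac

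An E-box was found in the DHODH window, 159 bases before the start, and in none of the other 4 windows printed, and 6.34% of 35116 promoter windows of this length hold one. GC boxes numbered 2 in the CAD window, 3 in that of DHODH and 4 at the first start of CTPS1. The DHODH pair at 194 and 190 bases before the start overlap, as do the CTPS1 pair at 52 and 47. No GC box was found for UMPS or at the second start of CTPS1, and 42.6% of all windows hold at least 1. Of the enzyme windows not printed, that of UCK2 held 4 GC boxes and that of a CTPS2 start held 2. Those of UCK1, CMPK1 and the other CTPS2 start held none. The palindrome TTCNNNGAA, which STAT proteins can bind, was found in none of the 5 windows printed, against 6.57% of all windows. These matches describe the letters of the windows only, and bases after the start were not searched.

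CAD is a single large protein that carries out the first steps of the de novo route, from glutamine to dihydroorotate. Its probe set 202715_at had signals of 868 and 663 on the NC1153 arrays, against 1865 and 2472 on the DMSO arrays. Both NC1153 arrays lay well below both DMSO arrays, and the difference was larger within replicate 2 (-1.90) than within replicate 1 (-1.10). The means were 766 ± 144 with NC1153 and 2168 ± 429 with DMSO (SD, n = 2 each), a log2 change of -1.50 ± 0.20 (SE; limma adjusted p = 0.0058). This was the largest fall among the 7 enzymes by their brightest probe sets. The dim second CAD probe set, 1564084_at, read 41.5 and 13.4 with NC1153 against 96.5 and 66.3 with DMSO. It has the same order of arrays, and its change of -1.76 was not called (95% interval -3.87 to 0.34; limma adjusted p = 0.42).

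DHODH sits in the inner mitochondrial membrane and oxidises dihydroorotate to orotate, handing the electrons to ubiquinone of the respiratory chain. Probe set 213632_at read 356 and 302 on the NC1153 arrays against 819 and 708 on the DMSO arrays. The groups were far apart, and the differences within replicates 1 and 2 were nearly equal, at -1.20 and -1.23. The means were 329 ± 38.0 with NC1153 and 764 ± 78.7 with DMSO (SD, n = 2 each), a log2 change of -1.22 ± 0.22 (SE; limma adjusted p = 0.019). Without DMSO replicate 1 the change was -1.11 and was no longer called (limma adjusted p = 0.083). Probe set 217647_at read 131 and 90.5 with NC1153 against 217 and 190 with DMSO, again without overlap, and its change of -0.90 was not called (limma adjusted p = 0.33). Probe set 213631_x_at, of a type whose probes can match several transcripts, read 94.9 and 57.7 with NC1153 against 129 and 83.0 with DMSO. Its groups overlapped, with a change of -0.48 (limma adjusted p = 0.80).

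UMPS joins orotate to PRPP and then removes a carboxyl group to give UMP, the first pyrimidine nucleotide of the de novo route. It was called by 2 of its 4 probe sets. The brightest, 215165_x_at, also of the type whose probes can match several transcripts, read 1401 and 1507 with NC1153 against 2927 and 2944 with DMSO. The means were 1454 ± 75.1 and 2935 ± 12.2 for NC1153 and DMSO (SD, n = 2 each), and the log2 change was -1.01 ± 0.14 (SE; limma adjusted p = 0.0069). Probe set 202706_s_at gave nearly the same size of change, with 1128 and 1136 with NC1153 against 2133 and 2443 with DMSO, a log2 change of -1.01 ± 0.15 (SE; limma adjusted p = 0.0094). In both, the NC1153 arrays differed from each other by much less than from the DMSO arrays. The other UMPS probe sets were dimmer and noisier. Probe set 202707_at read 23.1 and 118 with NC1153 against 134 and 186 with DMSO, a change of -1.60 that was not called (limma adjusted p = 0.37). Probe set 239800_at read 106 and 16.9 with NC1153 against 70.6 and 20.4 with DMSO, and its groups overlapped (change 0.16, limma adjusted p = 0.98).

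CTPS1 and CTPS2 are alternative CTP synthases, which turn UTP into CTP with nitrogen from glutamine, and CTPS1 is the form that multiplying human lymphocytes are known to need. The single CTPS1 probe set, 202613_at, read 1559 and 1372 on the NC1153 arrays against 2923 and 2829 on the DMSO arrays. The arrays of each group lay close together and the groups were far apart. The means were 1466 ± 132 with NC1153 and 2876 ± 66.3 with DMSO (SD, n = 2 each), a log2 change of -0.98 ± 0.15 (SE; limma adjusted p = 0.0092). CTPS2 was dim by both of its probe sets. Probe set 219080_s_at read 154 and 55.8 with NC1153 against 78.1 and 14.6 with DMSO, and 222819_at read 47.0 and 5.44 with NC1153 against 12.6 and 17.0 with DMSO. In both, the arrays of a group differed so much that the groups overlapped. The CTPS2 changes were 1.46 (95% interval -0.76 to 3.68; limma adjusted p = 0.56) and 0.13 (95% interval -2.89 to 3.14; limma adjusted p = 0.98). These intervals reach from a fall to a large rise, so the data do not show whether CTPS2 changed, and a difference in response between CTPS1 and CTPS2 was not tested.

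**Figure D2:**
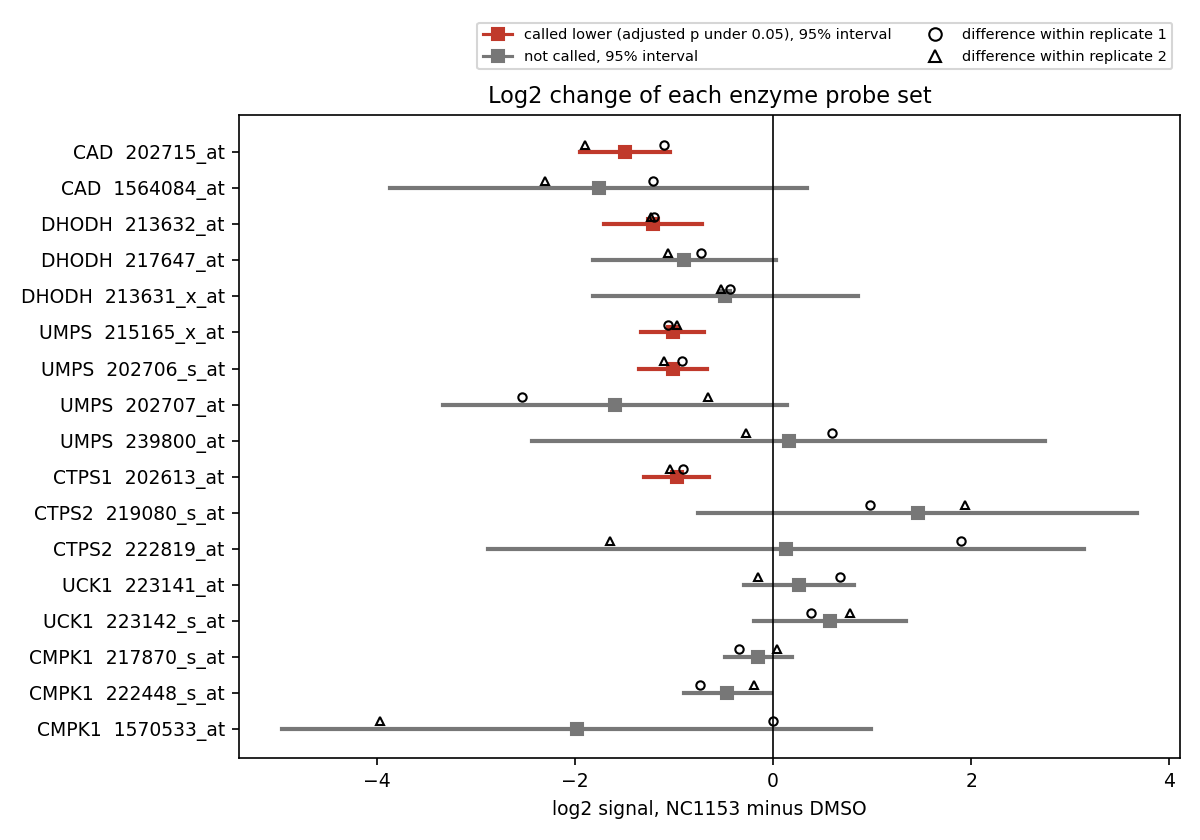
Log2 change of each member probe set, NC1153 minus DMSO (horizontal axis), with squares for the change, bars for the 95% interval of the limma fit and open symbols for the difference within each replicate number. The 5 called probe sets, in red, lie between -0.98 and -1.50, and the dim probe sets have intervals several log2 units wide.

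UCK1 is a uridine-cytidine kinase, which begins salvage by phosphorylating uridine and cytidine. Its probe set 223141_at read 851 and 545 on the NC1153 arrays against 533 and 605 on the DMSO arrays, and the groups overlapped. Its log2 change was 0.26 (95% interval -0.29 to 0.81; limma adjusted p = 0.71), an interval that does not reach the change of any of the 5 called members. The other UCK1 probe set, 223142_s_at, read 216 and 242 with NC1153 against 166 and 142 with DMSO. It was the member with both NC1153 arrays above both DMSO arrays, and its change of 0.58 was not called (95% interval -0.19 to 1.35; limma adjusted p = 0.49).

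CMPK1 phosphorylates UMP and CMP to their diphosphates and so serves both routes. Its probe set 217870_s_at read 4473 and 5656 with NC1153 against 5665 and 5487 with DMSO. The NC1153 arrays differed from each other by more than the groups did, and the change was -0.15 (95% interval -0.48 to 0.19; limma adjusted p = 0.73). Probe set 222448_s_at read 2605 and 4014 with NC1153 against 4335 and 4592 with DMSO, with both NC1153 arrays lower. Its change of -0.46 was not called (95% interval -0.90 to -0.02; limma adjusted p = 0.28). The change was -0.78 without NC1153 replicate 2 and -0.15 without NC1153 replicate 1. The third CMPK1 probe set, 1570533_at, was dim and read 65.5 and 4.29 with NC1153 against 65.3 and 67.3 with DMSO, so its change of -1.98 rests on NC1153 replicate 2 and was -0.02 without it.

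The 5 calls depend on how the spread of a probe set is estimated and on the centring of the arrays. With a constant prior variance in place of a trend, limma called 0 of the 17 members and 0 probe sets in all, with 5 members and 5300 probe sets at an unadjusted p under 0.05. After centring each array on its median it called 0 members (adjusted p = 0.11 to 0.28 for the 5), and 24 probe sets lower and 23 higher in all. The changes themselves stayed between -0.86 and -1.93 under every setting listed in the plot of settings. Centring on the spiked-in hybridization controls shifted the median change of all probe sets from 0.022 to -0.41 and kept all 5 calls. With each enzyme given as the mean log2 value of all its probe sets, dim ones included, CTPS1 was called (adjusted p = 0.013) and CAD (0.062), UMPS (0.10) and DHODH (0.25) were not. An exact permutation test of 2 against 2 arrays cannot go below p = 0.33.

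**Figure D3:**
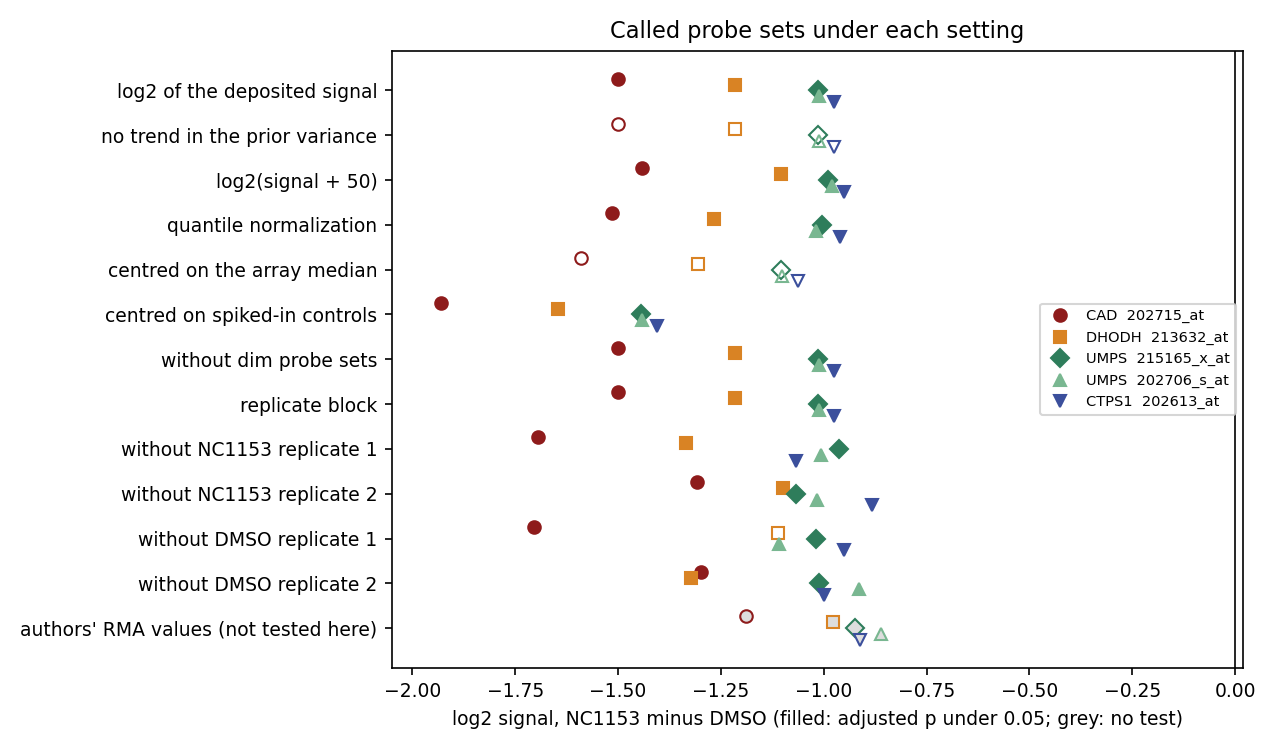
Log2 change, NC1153 minus DMSO (horizontal axis), of the 5 called probe sets under each setting (rows), filled where the adjusted p is under 0.05, open where it is not and grey where no test was made. All points lie between -0.86 and -1.93, and the open points are those without a trend in the prior variance, those centred on the array median and DHODH without DMSO replicate 1.

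The authors' deposited table holds 6 of the 17 members among its 2252 selected probe sets, out of 54675 on the array. In the authors' deposited table the log2 changes, from RMA values of the same 4 arrays, were -1.19 for CAD 202715_at, -0.98 for DHODH 213632_at, -0.92 and -0.86 for UMPS 215165_x_at and 202706_s_at, and -0.91 for CTPS1. The sixth is DHODH 217647_at, which was not called here and changed by -0.77 in the authors' deposited table (unadjusted p = 5e-04). The RMA changes were smaller than those of the signals for each of these 6.

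The genes around the route were mostly not called. Of 59 genes in 5 lists 55 were measured, and of these 3 fell, 3 rose and 49 did not pass, with a median change of -0.11. Over all genes 2.84% were called lower and 3.09% higher. Of the 55 measured genes 45 were not dim, and a difference from the shares over all genes was not tested. Among 13 genes of uridine and cytidine uptake, salvage and breakdown, SLC29A1 fell. It encodes the equilibrative nucleoside transporter ENT1, through which uridine and cytidine enter the cell. Its probe set 201801_s_at read 635 and 496 with NC1153 against 1556 and 1536 with DMSO, with no overlap and a log2 change of -1.46 ± 0.19 (SE; limma adjusted p = 0.0048). Its second probe set was also called, with a change of -1.08.

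PRPP, which UMPS uses, is made by PRPP synthetases. Among 10 measured suppliers of carbamoyl phosphate, aspartate and PRPP, the synthetase gene PRPS2 fell and PRPSAP1, whose product binds and restrains these synthetases, rose. PRPS2 read 1988 and 2452 with NC1153 against 4401 and 4431 with DMSO, a fall on the log2 scale with a 95% interval of -1.34 to -0.66 (limma adjusted p = 0.0089), and its other probe set was called at -1.10. PRPSAP1 read 4211 and 3704 with NC1153 against 2668 and 2502 with DMSO, a log2 change of 0.61 ± 0.14 (SE; limma adjusted p = 0.047). The PRPSAP1 call was lost without NC1153 replicate 1 (limma adjusted p = 0.10), without DMSO replicate 1 (0.17), without DMSO replicate 2 (0.27) and with centring on the spiked-in controls (0.69). The remaining 8 suppliers, among them PRPS1 and the aspartate aminotransferase genes GOT1 and GOT2, were not called.

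Of 11 measured genes of diphosphate kinases, UMP-CMP kinase 2 and nucleotidases, NT5C2 rose. It encodes a cytosolic nucleotidase that turns nucleoside monophosphates, chiefly purine ones, back into nucleosides. NT5C2 read 2845 and 3353 with NC1153 against 1672 and 1441 with DMSO, a log2 change of 0.99 ± 0.16 (SE; limma adjusted p = 0.011). Of 10 genes for enzymes that use UTP or CTP or act in routes that do, GFPT1 rose and 9 were not called. The median change of the 10 was -0.10, with 5 negative. GFPT1 encodes the first enzyme of the hexosamine pathway, whose end product UDP-N-acetylglucosamine is made with UTP at a later step. GFPT1 read 2247 and 2339 with NC1153 against 1206 and 1183 with DMSO, a log2 change of 0.94 ± 0.15 (SE; limma adjusted p = 0.010), and all 3 of its other probe sets had a positive change, 1 of them called. With centring on the spiked-in controls neither NT5C2 (0.56, limma adjusted p = 0.27) nor GFPT1 (0.51, limma adjusted p = 0.29) was called.

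Of 11 genes listed as deoxypyrimidine enzymes, which make, convert or break down DNA precursors, RRM2 fell and 10 were not called. RRM2, the regulated small subunit of ribonucleotide reductase, read 13505 and 11821 with NC1153 against 19808 and 20209 with DMSO, a log2 change of -0.66 ± 0.13 (SE; limma adjusted p = 0.027). Its second probe set was also called, with a change of -1.44 (limma adjusted p = 0.0018). The call of the brighter probe set was lost without DMSO replicate 1 (limma adjusted p = 0.24) and without DMSO replicate 2 (0.25), and with log2(signal + 50) in place of log2 of the signal (0.062).

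**Figure D4:**
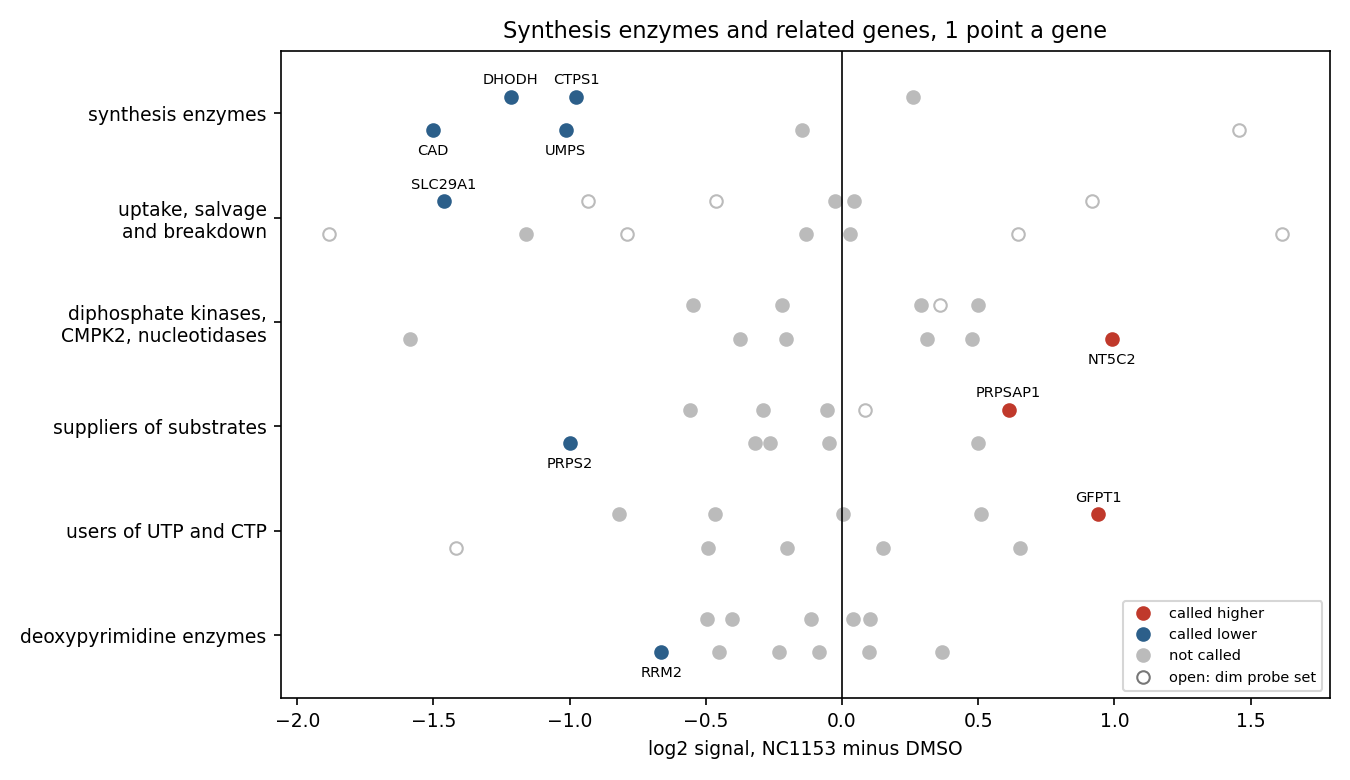
Log2 change, NC1153 minus DMSO (horizontal axis), of each gene by its brightest probe set, in rows for the 7 measured synthesis enzymes and the 5 lists of related genes, with blue for called lower, red for called higher, grey for not called and open points for dim probe sets. In the row of synthesis enzymes 4 of 7 are called lower, and in the other rows together 3 of 55 are called lower and 3 higher.

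CAD is a known MYC target, and its protein is phosphorylated by MAP kinases and by S6 kinase. Of 6 measured genes for transcription factors and kinases known to act on CAD, 0 were called. MYC read 5919 and 5606 with NC1153 against 7304 and 12786 with DMSO, with no overlap but a wide gap between the DMSO arrays, and a log2 change of -0.75 (limma adjusted p = 0.12). Without DMSO replicate 1 the change was -1.15, and without DMSO replicate 2 it was -0.34, each with a single DMSO array left. The genes for MAX, USF1, SP1, S6 kinase (RPS6KB1) and MAPK3 changed by -0.18 to 0.34 (limma adjusted p = 0.32 to 0.99). USF1 was dim, with a 95% interval of -2.42 to 2.76, and the interval of RPS6KB1 was -0.70 to 0.76. For these genes the data do not show whether the transcript changed.

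The genes whose pattern over the 4 arrays was most like that of CAD were sought among 11236 others that were not dim, by the Euclidean distance between log2 values centred on their own mean. The closest were GATA3 (distance 0.14), NRROS (0.16), MEIS1 (0.21), GEMIN4 (0.22) and RTEL1 (0.22). GEMIN4, a part of the SMN complex that assembles spliceosomal particles, read 535 and 445 with NC1153 against 1277 and 1401 with DMSO and was called by both of its probe sets. NRROS was also called (-1.44, limma adjusted p = 0.0076). GATA3, MEIS1 and RTEL1 had changes of -1.50, -1.31 and -1.36 and were not called (limma adjusted p = 0.12, 0.074 and 0.094). Their other probe sets were not called either. That of RTEL1, nearly as bright, changed by only -0.20, that of MEIS1 by -1.03, and the dim ones of GATA3 by 0.12 and -2.10. With 4 arrays, many genes lie close to any pattern, so these distances describe likeness on these arrays only.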

How the data were processed

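RNA of 4 samples was measured on HG-U133 Plus 2.0 arrays. The deposited values are intensities on a linear scale, scaled per array by the authors, whose software is not given in the sources used here. A second deposited table, used only for comparison, holds log2 values and unadjusted p-values of 2252 probe sets that the authors selected after RMA with limma and Storey q-values, per the file headers.

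Log2 of the signal, with no pseudocount, was fitted over 54613 non-control probe sets with limma 3.58.1 in R 4.3.3 (lmFit, eBayes with trend), two-sided, with 2 residual and 7.27 prior degrees of freedom. On simulated data of that size the fit recovered 4% of log2 changes of 1 and 55% of log2 changes of 2. The simulation changed only a few probe sets, all among the brighter ones and far fewer than were called here. Fewer true changes make the adjustment stricter, so these shares do not give the power of the fit on the real arrays. Precision is limited by having only 2 arrays a group. Symbols were updated by gene identifier from RefSeq, matching 41037 of 41091 probe sets with 1 gene. A gene's brightest probe set has the highest mean log2 value, and a dim one has a mean log2 value below log2 of the median signal, 72.3.

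The rule for named genes took every enzyme probe set, up to 4 called genes of each list, CAD regulators and the 5 genes most like CAD. Members, lists and tests were chosen with earlier results of these data known. Deviations of equally numbered arrays correlated with r = 0.055 over all probe sets and 0.13 over the brighter ones, and array names in the deposited table's header carry a common number within each replicate, whose meaning no source states. The replicate number was therefore kept out of the fit and tried as a block. Alternatives covered the variance model, pseudocount, normalization, centring, dim probe sets, threshold, probe set choice, the replicate block and each array left out. With an array left out, a group holds a single array, so those p-values and calls do not measure the spread within that group.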

Additional observations from a re-analysis of the deposited data

How the results depend on the processing

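The directions of the 5 called enzyme probe sets held under every setting run. Because their groups did not overlap, leaving out an array or adding 50 to the signal could not turn them. The settings of variance model, block, threshold and dim probe sets left each change as it was. Called enzyme probe sets and enzyme genes numbered 0 without a trend in the prior variance and 0 with centring on the array median, and with the mean of all probe sets of a gene 1 enzyme gene was called. The 3 lower and 3 higher calls among related genes became 0 and 0 under both of the first settings, 5 and 0 with centring on the spiked-in controls, and 5 and 5 with the replicate number as a block. They included 5 higher without dim probe sets and 0 higher at an adjusted p under 0.01. The causes were not tested. The replicate block left 5 enzyme probe sets called lower, and MYC (adjusted p = 0.0065), MEIS1 (0.031) and RTEL1 (0.036) passed with it. With single arrays left out, 4 to 6 enzyme probe sets and 3 to 4 enzyme genes were called lower and 0 higher, and 2 to 4 related genes were called in each direction. Changes that turned sign were all of uncalled probe sets. With spiked-in centring they were UMPS 239800_at (-0.27), CTPS2 222819_at (-0.30) and UCK1 223141_at (-0.17). With single arrays left out, changes ranged from -1.17 to 1.49 for UMPS 239800_at, from -1.43 to 1.68 for CTPS2 222819_at, from -0.060 to 0.58 for UCK1 223141_at and from -0.32 to 0.021 for CMPK1 217870_s_at, below and above 0 in each. The settings for MYC, the called related genes and the genes most like CAD were chosen after seeing the data. Signal limits what can be said of CTPS2, which was dim by mean log2 signal on both probe sets.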
